A study of Homo sapiens with 12 samples.

Results

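The second hour of actinomycin D was measured as the difference between RNA taken 2 h and 1 h after the drug was added, in 6 of the 12 libraries of the series. Each time point held 3 biological replicates, and each library at 2 h was paired with the library at 1 h that carries the same replicate number. The cells were shA673-1c, a line derived from the Ewing sarcoma line A673 in which doxycycline switches on a hairpin RNA that knocks down the fusion EWS::FLI1. All groups, including the libraries at 0 h, had received 1 µg/ml doxycycline for 4 days in medium with Blasticidin and zeocyn, and all were treated with 5 µM actinomycin D for 0, 1, 2 or 4 h. There was no group without doxycycline and no vehicle series among the samples, all cells were of 1 derived line, and polyadenylated RNA alone was sequenced.

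Actinomycin D inserts into DNA and blocks elongation by RNA polymerases, so that no new transcripts replace those that decay. The amount of an mRNA that remains then depends on how fast it is degraded, although transcripts already under way, and nuclear precursors still being processed, can feed the cytoplasmic pool for some time after the drug is added. Short-lived mRNAs typically encode proteins whose level must change quickly, such as immediate early transcription factors and the inhibitors that switch signalling pathways off. Sequence elements in the 3′ untranslated region (3′ UTR) are known to recruit decay factors: AU-rich elements, with the pentamer ATTTA in the DNA alphabet, are bound by proteins such as ZFP36, and Pumilio proteins bind a UGUA-containing motif.

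The sequences below show such elements where they were found among the 12 largest falls of the second hour with a mean of at least 5 CPM (counts scaled to a common library size). PLK2, CSRNP1, NFKBIA, HES1, ZNF574 and DUSP6 held a match. SERTAD3, C15orf39, SOCS3, DDIT4 and IER2 held neither motif. MYC is also among the 12, and its motifs are not reported here. Some genes that rose held a match, with 2 overlapping nonamers in IL1B, 1 match of each motif in PIGN and 1 Pumilio motif in SERPINB7. The calls of IL1B and SERPINB7 as higher were lost in 8 and 2 of 15 alternative fits. The sequences were read from GENCODE release 29 transcripts, on the strand of the mRNA and written with T, and the capitals mark the motif searched. The AU-rich nonamer TTATTTATT, which contains the pentamer, was present once in the 3′ UTR of PLK2 (chromosome 5, 58454066 to 58454094, minus strand, GRCh38) and of CSRNP1 (chromosome 3, 39142885 to 39142913, minus strand, GRCh38).
PLK2 nonamer: aataaactttTTATTTATTacagcccaaa
CSRNP1 nonamer: ttctctggatTTATTTATTtgttttaact
The Pumilio motif TGTANATA was present in the 3′ UTR of NFKBIA (chromosome 14, 35401567 to 35401594, minus strand), of HES1 (chromosome 3, 194138415 to 194138442, plus strand) and of ZNF574 (chromosome 19, 42081359 to 42081386, plus strand), and at 2 places in DUSP6 (chromosome 12, 89348742 to 89348769 and 89348422 to 89348449, minus strand).
NFKBIA Pumilio motif: ctgtaaatggTGTACATAatgtattgtt
HES1 Pumilio motif: gcactatattTGTATATAttttatatgt
ZNF574 Pumilio motif: cttaagcatcTGTACATActgtgtccct
DUSP6 Pumilio motif, first: atttgattatTGTAAATAtttgatcttg
DUSP6 Pumilio motif, second: gccttaccttTGTAAATAtttttgcttg
A match of letters is a description and was not tested as a binding site. The counts themselves were made on build hg19, per the submitters' processing notes, and carry no coordinates.

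The 6 libraries of 1 h and 2 h held between 9381855 and 10918686 counts each, and the 10 most abundant genes took 7.78% to 8.51% of them. Ribosomal protein mRNAs took 3.22% to 3.55% of the counts at 1 h and 3.47% to 3.65% at 2 h. VIM, an intermediate filament gene of mesenchymal cells, lay between 5940.3 and 6572.6 CPM. The neural transcription factor gene NKX2-2, a defining gene of this tumour type, averaged 1.91 CPM at 1 h. Its mean dropped to 0.785 CPM over the second hour, and edgeR called it lower (adjusted p = 0.00764, log2 -1.27, SE 0.35). This call was lost in 4 of 14 alternatives and rests on 85 counts in the 6 libraries. Of the 6 tested marker genes of the line, NKX2-2 was the 1 called lower, and 0 were called higher. The markers LIPI and PRKCB had means of 8.03 and 7.40 CPM at 1 h. CD99, the diagnostic surface marker of Ewing sarcoma, had no count in these libraries. Neither had 25 of the 26 genes in the table that the annotation places on both X and Y. Summed markers of other cell types were alike at both times: blood markers came to 47.4 to 59.8 raw CPM at 1 h and 47.4 to 51.1 at 2 h, with 5 of 12 at 0, and epithelial markers to 22.4 to 26.7 and 20.3 to 24.4. Endothelial markers came to 4.49 to 6.61 and 4.48 to 6.48 raw CPM, and liver markers to 1.06 to 1.65 and 0.681 to 1.46, and no tested member of these lists passed the test between 1 h and 2 h.

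Between 1 h and 2 h, 1827 of 12775 genes tested fell, which is 14.3%, and 1664 genes, or 13.0%, rose (edgeR quasi-likelihood test with the replicate number as a block, Benjamini-Hochberg adjusted p below 0.05). Every value is relative to the other RNAs of the library, because the libraries were scaled to each other and no external standard was among the data used here. A rise therefore cannot be told apart from a loss slower than that of the other RNAs. Neither the number of cells nor the RNA per cell can be read from these values. The falls and the rises differed in size. The median fall among called genes was -0.44 on the log2 scale and the median rise 0.20, and 224 genes (1.75%) fell by more than 2-fold while 2 rose by that much. Among genes called lower, 21 fell by more than 4-fold. Across all genes tested the median change was 0.01, the 1st percentile -1.22 and the 99th percentile 0.51. The plot of all genes tested shows this asymmetry.

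**Figure D1:**
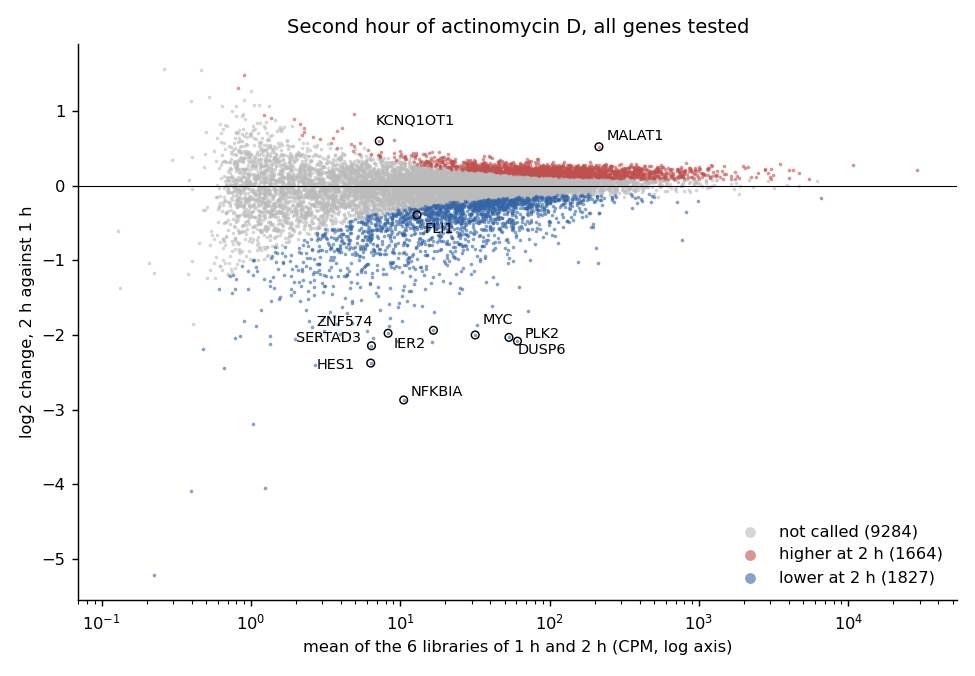
Log2 change from 1 h to 2 h (vertical axis) against the mean of the 6 libraries in CPM (horizontal log axis) for the 12775 genes tested, 1 point a gene; blue genes were called lower, red genes higher, and circles mark named genes. Falls reach past a log2 change of -2 at levels from below 1 to about 60 CPM (PLK2), whereas called rises at high expression stay close to 0.

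The numbers of rises and of falls both depended on the scaling. Scaling to library totals gave 2456 lower and 816 higher genes, and scaling to the summed ribosomal protein mRNAs gave 3789 lower and 76 higher, with all 1827 genes called lower remaining among the lower genes in both. The median of all genes was then -0.05 and -0.14 on the log2 scale. Both scalings thus moved the changes downward, which enlarges falls, so the kept calls were no test of the falls. DESeq2 with its own size factors and the replicate block had a median of 0.01 and called 1278 genes lower and 1220 higher. Without the replicate block, 731 genes were called lower and 187 higher, all of them among the main calls. Leaving out replicate 2 at every time gave 1127 lower and 668 higher genes, and leaving out replicate 3 gave 1275 and 597.

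NFKBIA, which encodes the inhibitor that holds NF-kappa-B in the cytoplasm, had the largest fall among genes averaging at least 5 CPM. It measured 16.9, 17.7 and 21.0 CPM in replicates 1, 2 and 3 at 1 h and 2.15, 3.34 and 2.13 CPM at 2 h. The ranges at both times did not overlap and each pair fell. The log2 change was -2.87 (SE 0.16, adjusted p = 4.15e-14 by edgeR), which left 13.7% of the level at 1 h. Over all genes tested, 1740 (13.6%) were lower and 1355 (10.6%) higher without such overlap. HES1, the Notch-responsive transcriptional repressor, went from 9.52, 11.9 and 10.5 CPM to 2.35, 2.23 and 1.55 CPM (log2 -2.38, SE 0.17). SERTAD3, a transcriptional coregulator, went from 9.83, 10.2 and 11.4 CPM to 2.35, 2.43 and 2.32 CPM (log2 -2.14, SE 0.16). In both genes the 3 libraries at each time were close together and did not overlap with the other time.

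Among the largest falls, the more abundant mRNAs had the smaller standard errors. PLK2, a polo-like kinase induced by stress and p53, measured 110, 105 and 81.2 CPM at 1 h and 23.8, 20.4 and 25.1 CPM at 2 h. Its level fell 4.23-fold (log2 -2.08, SE 0.09, adjusted p = 1.36e-16 by edgeR). DUSP6, the phosphatase that inactivates ERK, measured 84.0, 84.3 and 89.3 CPM at 1 h and 19.7, 18.6 and 24.6 CPM at 2 h, which is a 4.09-fold fall (log2 -2.03, SE 0.07). The proto-oncogene MYC measured 55.3, 58.8 and 38.4 CPM at 1 h and 15.0, 12.5 and 10.4 CPM at 2 h. Replicate 3 was the lowest of the 3 at both times, and the fall was 4-fold (log2 -1.999, SE 0.08). In each of these genes all 3 libraries at 2 h lay below all 3 at 1 h.

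The other genes among the 12 largest falls lay between -2.09 and -1.94 on the log2 scale, and none of them had overlapping groups. All 12 were chosen as the largest falls with each pair lower, so this separation is largely set by the choice. C15orf39 went from 28.04, 27.5 and 24.1 CPM to 8.52, 5.26 and 4.93 CPM. SOCS3, a cytokine-signalling inhibitor, went from 14.6, 17.3 and 14.7 CPM to 4.02, 2.43 and 4.54 CPM. DDIT4, a stress-induced inhibitor of mTORC1, went from 10.3, 7.83 and 13.4 CPM to 2.45, 1.82 and 3.38 CPM. ZNF574 is a zinc finger gene, CSRNP1 a nuclear protein gene and IER2 an immediate early gene, and their log2 changes were -1.98, -1.95 and -1.94. All 12 genes stayed past the threshold in every alternative that was run. Larger falls were fitted for genes below 5 CPM, among them OTX1 (0.828, 0.754 and 0.695 CPM at 1 h, 0.098 CPM in replicate 1 and no count in replicates 2 and 3 at 2 h) and C10orf10 (1.86, 2.55 and 2.69 CPM, then 0.098, 0.101 and 0.193 CPM), which were singled out after their values were seen. At such levels a library holds about 1 or 2 counts at 2 h, so no fold is given.

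**Figure D2:**
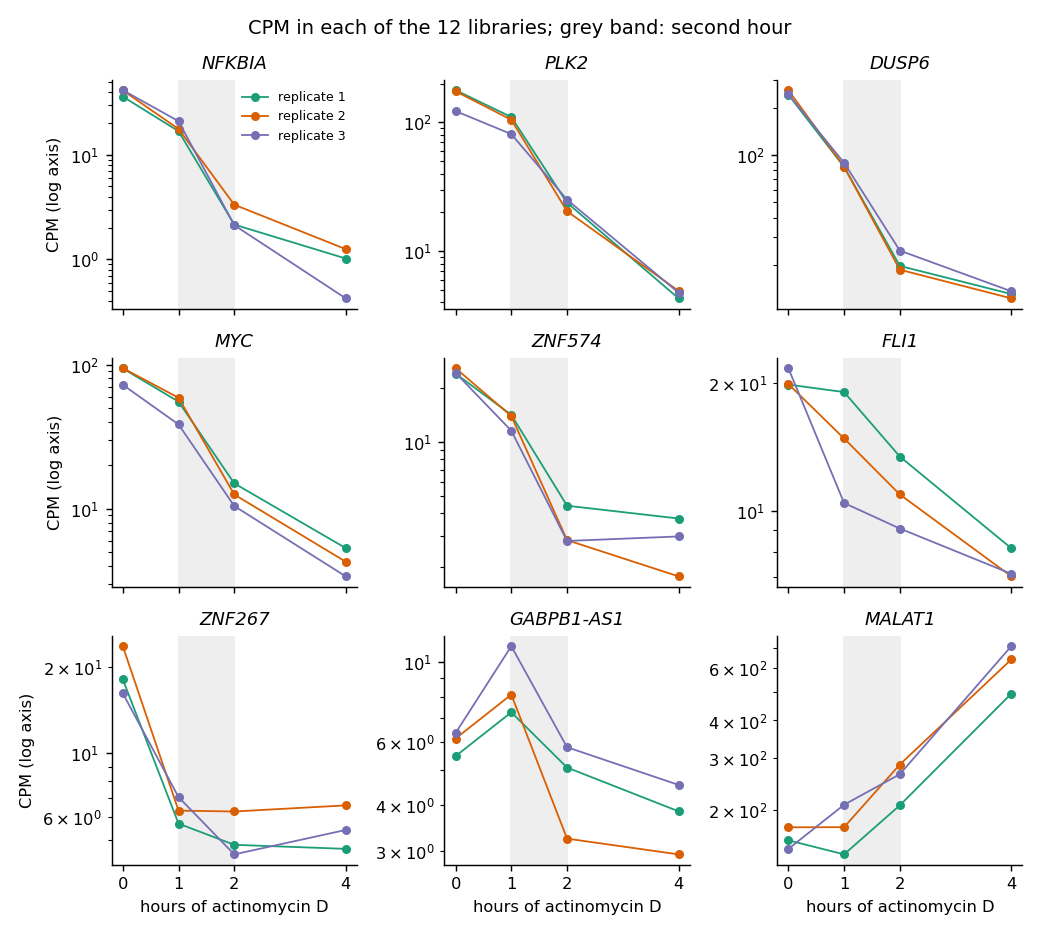
CPM (log axis) of 9 genes in each of the 12 libraries against hours of actinomycin D, with 1 line per replicate number and the second hour in grey. NFKBIA, PLK2, DUSP6, MYC and ZNF574 fall most steeply inside the grey band, ZNF267 has most of its fall before it, GABPB1-AS1 peaks at 1 h, and MALAT1 goes up in all 3 replicates within the band.

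Immediate early transcription factor genes, which cells switch on within minutes of a stimulus, fell in most cases. Of 37 tested, 26 fell and none rose, against 14.3% lower over all genes, and the median log2 change was -0.82 against 0.01. JUN, an AP-1 subunit, went from 49.9, 59.8 and 42.9 CPM to 16.7, 13.1 and 12.1 CPM (log2 -1.86, SE 0.09, adjusted p = 1.8e-15 by edgeR). KLF6, a zinc finger activator, fell 2.03-fold from 221, 222 and 177 CPM to 111, 105 and 89.0 CPM (log2 -1.02, SE 0.05). ARID5B, a chromatin-associated regulator, went from 53.2, 46.4 and 61.2 CPM to 21.7, 18.7 and 25.4 CPM (log2 -1.29, SE 0.07). ZFP36, which encodes a protein that itself binds AU-rich elements, fell by 1.22 on the log2 scale. The members that did not pass the test include FOS, the AP-1 partner of JUN: it had 1.32, 2.07 and 2.56 CPM at 0 h, 0.414, 0.471 and 0.348 CPM at 1 h and 0.392, 0.607 and 0.193 CPM at 2 h. FOS was thus already near the level of a few counts before the second hour began, and a further fall was not detectable at this depth. JUND, the AP-1 subunit of resting cells, had a log2 change of -0.10 (adjusted p = 0.384), and KLF9 had the highest value of the list, 0.20, which did not pass either.

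Feedback inhibitors of kinase, cytokine and NF-kappa-B signalling had 74.4% of their tested members called lower, and immediate early genes 70.3%, against 14.3% over all genes. Of 43 tested, 32 fell, none rose, 16 fell by more than 2-fold (as did 1.75% of all genes tested), and the median log2 change was -0.55. Besides NFKBIA, SOCS3 and DUSP6, the ERK phosphatase gene DUSP5 went from 90.1, 80.3 and 40.9 CPM to 44.7, 35.2 and 22.3 CPM (log2 -1.04, SE 0.07). Replicate 3 had the lowest DUSP5 level at both times, so the ranges overlapped although each pair fell, and its call was lost without the replicate block (adjusted p = 0.0972). PHLDA1, a pleckstrin-homology protein gene, went from 275, 243 and 275 CPM to 147, 130 and 166 CPM (log2 -0.84, SE 0.05). TNFAIP3, which encodes the NF-kappa-B inhibitor A20, fell from a mean of 14.3 CPM to 6.78 CPM (log2 -1.05, adjusted p = 2.01e-06). Of the I-kappa-B genes other than NFKBIA, NFKBIB had a log2 change of 0.09 (adjusted p = 0.543) and NFKBIE one of -0.34 (adjusted p = 0.104), and neither passed. These 3 members were named after their values were seen.

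Stress-inducible and p53-linked regulators had 22 of 40 members lower (55.0%, against 14.3% over all genes) and 2 higher, with a median log2 change of -0.50. CITED2, a transcriptional coregulator, went from 102, 95.9 and 71.3 CPM to 38.1, 33.1 and 33.2 CPM (log2 -1.36, SE 0.07). BTG1, an antiproliferative gene, went from 35.5, 33.3 and 29.8 CPM to 14.6, 14.0 and 14.9 CPM (log2 -1.18, SE 0.09). CDKN1A, the classical p53 target, stayed between 55.2 and 78.8 CPM over the 6 libraries (log2 -0.03, adjusted p = 0.793), and MDM2, the p53 ubiquitin ligase, had a log2 change of -0.14 (adjusted p = 0.0711). In the list of the BCL2 family and caspase inhibitors, 5 of 20 members fell, against the same 14.3%, and of these BOK lost its call in 4 of 15 alternatives and BCL2L1 in 1. The proapoptotic BMF went from 22.2, 25.3 and 37.5 CPM to 11.6, 12.5 and 18.3 CPM (log2 -1.01, SE 0.09), and the prosurvival MCL1 from 76.2, 70.2 and 71.7 CPM to 47.7, 43.3 and 47.0 CPM (log2 -0.66, SE 0.07).

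Among transcription factors of Notch, BMP and mesenchymal development, 29 of 45 fell (64.4%, against 14.3% over all genes) and none rose, with a median log2 change of -0.51. SOX9, a regulator of cartilage and neural crest, fell from 78.2, 78.1 and 70.2 CPM to 37.4, 37.7 and 37.6 CPM (log2 -1.003, SE 0.08). SNAI1, a repressor of epithelial genes, went from 10.9, 10.7 and 11.6 CPM to 3.33, 3.24 and 3.86 CPM (log2 -1.66, SE 0.15). SOX4 went from 21.8, 25.9 and 34.2 CPM to 12.2, 11.4 and 18.1 CPM (log2 -0.97, SE 0.09). The highest library at 2 h lay below the lowest at 1 h in these 3 genes, as in 13.6% of all genes tested. These genes were named for the smallest p of their list in this comparison, so the separation is largely set by the choice.

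Among the gene lists, the list of zinc finger genes named ZNF held the most falls and was also the longest. The feedback, immediate early and developmental lists had higher shares of falls (74.4%, 70.3% and 64.4%). Of 393 tested genes named ZNF, which encode C2H2 zinc finger proteins, 221 fell (56.2%, against 14.3% over all genes) and 2 rose. Their median log2 change was -0.46. They made up 58 of the 224 genes that fell by more than 2-fold, and 393 of the 12775 genes tested. Over all genes tested, 1.75% fell that far. ZNF526 went from 13.5, 14.0 and 12.3 CPM to 4.51, 3.74 and 2.61 CPM (log2 -1.88, SE 0.14), and ZNF217, a transcriptional corepressor, from 36.4, 35.0 and 37.1 CPM to 13.1, 14.8 and 12.5 CPM (log2 -1.43, SE 0.09). ZNF281 went from 21.8, 22.3 and 19.4 CPM to 8.33, 6.58 and 5.89 CPM (log2 -1.61, SE 0.11). Zinc finger genes of the same cluster share similar sequences, and no source used here gives the counting rule. For near-identical members, reads could have been split or, where they match several places, not counted at all: most genes placed on both X and Y had no count, as given above. Without the replicate block, 122 ZNF genes were called lower.

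**Figure D3:**
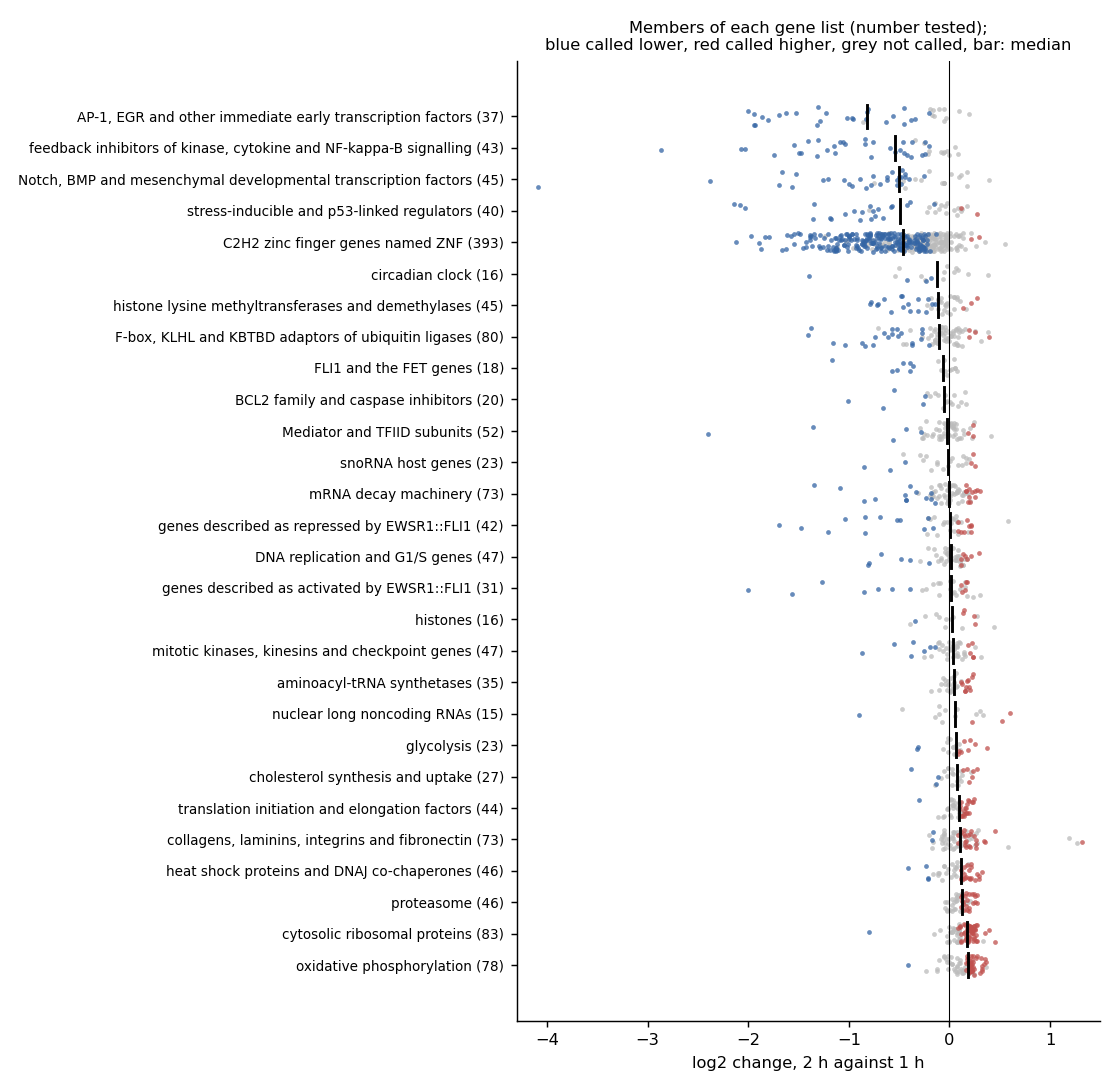
Log2 change from 1 h to 2 h (horizontal axis) of every tested member of 28 gene lists (rows, with the number tested), sorted by median; blue members were called lower, red higher and grey not called, and black bars are medians. The lists of immediate early, feedback, developmental, stress and ZNF genes have medians between -0.82 and -0.46, and oxidative phosphorylation and ribosomal protein genes have the highest medians, 0.18 and 0.17.

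In the lists of mRNA decay and of Mediator and TFIID, 2 members each fell by more than 2-fold, as did 1.75% of all genes tested. Both medians lay near that of all genes. In the mRNA decay machinery 13 of 73 members fell (17.8%) and 12 rose (16.4%), close to the 14.3% and 13.0% over all genes, with a median of 0.00. PNRC1, a cofactor of decapping, went from 13.7, 13.3 and 18.3 CPM to 5.88, 4.86 and 7.05 CPM (log2 -1.35, SE 0.13). Among Mediator and TFIID subunits, 5 of 52 fell (9.62%) and 3 rose (5.77%), shares below those of all genes. MED26 went from 4.66, 4.62 and 4.35 CPM to 1.08, 0.91 and 0.58 CPM (log2 -2.40, SE 0.25), and MED9 from 7.97, 7.73 and 7.65 CPM to 2.64, 3.24 and 3.19 CPM (log2 -1.36, SE 0.16).

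Of 45 histone lysine methyltransferase and demethylase genes, 17 fell (37.8%, against 14.3% over all genes) and 3 rose (median -0.11). JMJD1C, of the JmjC demethylase family, went from 106, 85.0 and 112 CPM to 56.6, 50.1 and 68.6 CPM (log2 -0.78, SE 0.07). KDM2A, an H3K36 demethylase gene, had a log2 change of -0.58 (SE 0.05) and KMT2E one of -0.72 (SE 0.06). Of 80 F-box, KLHL and KBTBD adaptors, which choose the substrates of ubiquitin ligases, 21 fell (26.2%) and 4 rose (5.00%). FBXO5, an inhibitor of the anaphase-promoting complex, went from 15.0, 17.7 and 31.3 CPM to 6.95, 6.68 and 10.8 CPM (log2 -1.38, SE 0.13), and replicate 3 was the highest at both times. Of 16 circadian clock genes, 4 fell, against 14.3% over all genes. NFIL3, a repressor of clock output, went from 16.6, 16.6 and 12.5 CPM to 5.97, 5.06 and 6.18 CPM (log2 -1.40, SE 0.13), and the other 3 had log2 changes between -0.43 and -0.19 and lost their calls in some alternatives.

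FLI1, whose 3′ part is also contained in the fusion transcript that the hairpin targets, measured 19.0, 14.8 and 10.4 CPM at 1 h and 13.4, 10.9 and 9.08 CPM at 2 h. The groups overlapped, each pair fell, and the log2 change was -0.39 (SE 0.14, adjusted p = 0.0315 by edgeR). This call was lost in 8 of 15 alternatives, with adjusted p up to 0.281. EWSR1, which gives the 5′ part of the fusion, went from 257, 274 and 231 CPM to 258, 265 and 217 CPM (log2 -0.04, adjusted p = 0.446). Together 7 of 18 genes of the FET and ETS families fell (38.9%, against 14.3% over all genes) and none rose. ETV3, an ETS repressor, went from 9.83, 8.96 and 7.91 CPM to 4.21, 4.15 and 3.48 CPM (log2 -1.17, SE 0.15), and ERF, another ETS repressor, from 66.7, 87.6 and 80.7 CPM to 55.7, 49.3 and 53.1 CPM (log2 -0.57, SE 0.08).

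Genes described as targets of the fusion were called in both directions, with medians near 0. Of those described as activated by EWSR1::FLI1, 7 of 31 fell (22.6%) and 5 rose (16.1%), with a median of 0.02. Of those described as repressed, 12 of 42 fell (28.6%) and 9 rose (21.4%), with a median of 0.01. Over all genes the shares were 14.3% and 13.0%. SOX2 went from 4.24, 6.13 and 10.8 CPM to 0.979, 1.62 and 4.54 CPM (log2 -1.57, SE 0.23), CYR61, a matricellular protein gene, from 296, 316 and 234 CPM to 138, 145 and 128 CPM (log2 -1.04, SE 0.07), and SPRY1, an inhibitor of receptor tyrosine kinase signalling, from 5.48, 7.92 and 17.8 CPM to 2.55, 2.63 and 5.99 CPM (log2 -1.47, SE 0.15). SOX2 and SPRY1 differed between replicates by more than 2-fold at each time, so their groups overlapped, yet each pair fell. Each of these 2 calls was lost in 1 of 15 alternatives (adjusted p = 0.0845 and 0.102).

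Cell cycle genes were called about as often as genes in general. Of 47 DNA replication and G1/S genes, 6 fell (12.8%) and 7 rose (14.9%), and of 47 mitotic genes, 7 fell (14.9%) and 5 rose (10.6%), against 14.3% and 13.0% over all genes. CDT1, the licensing factor of replication origins, went from 27.4, 37.8 and 50.8 CPM to 18.8, 18.8 and 28.8 CPM (log2 -0.80, SE 0.08), and HJURP, the chaperone of centromeric histone, from 25.4, 21.3 and 36.8 CPM to 12.1, 12.04 and 21.5 CPM (log2 -0.87, SE 0.09). Replicate 3 was the highest at both times in both genes, and the groups overlapped. MCM6, a subunit of the replicative helicase, went from 129, 162 and 217 CPM to 147, 192 and 250 CPM (log2 0.21, SE 0.05), which also put each pair on the same side. The call of MCM6 was lost in 2 of 15 alternatives (adjusted p up to 0.723), and those of CDT1 and HJURP in 1 each (0.116 and 0.102).

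Rises were small and were frequent in the lists of basic cell functions. Of 83 cytosolic ribosomal protein genes, 54 rose (65.1%, against 13.0% over all genes) and 1, RPL36A, fell, and the median was 0.17. Scaled to library totals 41 rose, without the replicate block 12, and with the ribosomal protein mRNAs themselves as the scale 10. RPL7 went from 484, 526 and 490 CPM to 555, 637 and 626 CPM (log2 0.28, SE 0.04, adjusted p = 1.32e-06 by edgeR), and RPS6, the ribosomal protein phosphorylated by S6 kinase, from 509, 543 and 510 CPM to 600, 648 and 602 CPM (log2 0.24, SE 0.03). The groups did not overlap in either gene, and 10.6% of all genes tested were higher without overlap. Both genes were named for a small p in this comparison, so the separation is largely set by the choice. Many ribosomal protein genes have processed pseudogenes with similar sequence, so reads that match both may have been split or not counted.

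Oxidative phosphorylation genes had 41 of 78 members higher (52.6%, against 13.0% over all genes) and 1, NDUFV3, lower (1.28%, against 14.3%). Their median was 0.18, and 25 were higher by library totals, 14 without the block and 5 on the ribosomal scale. The ATP synthase subunit gene ATP5J went from 70.7, 77.1 and 73.3 CPM to 90.6, 96.1 and 96.2 CPM (log2 0.36, SE 0.05), and the cytochrome c oxidase subunit gene COX7B from 70.6, 76.7 and 68.6 CPM to 88.7, 93.4 and 94.9 CPM (log2 0.36, SE 0.06). Both stayed past the threshold in all alternatives, the ribosomal scale included. Of 46 proteasome genes 22 rose (47.8%, against 13.0% over all genes) and none fell, with a median of 0.12 that was -0.02 on the ribosomal scale. PSMA4, an alpha subunit of the 20S core, went from 209, 211 and 219 CPM to 242, 259 and 272 CPM (log2 0.27, SE 0.04).

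Translation factors had 19 of 44 higher (43.2%, against 13.0% over all genes) and 1 lower (2.27%, against 14.3%). Heat shock proteins and DNAJ co-chaperones had 20 of 46 higher (43.5%) and 4 lower (8.70%). Extracellular matrix genes had 23 of 73 higher (31.5%) and 2 lower (2.74%). The medians, in that order, were 0.10, 0.11 and 0.10 with the main scaling and just below 0, at -0.05, -0.03 and -0.05, on the ribosomal scale. HSP90B1, a chaperone of the endoplasmic reticulum, went from 3206, 3264 and 2972 CPM to 3817, 4022 and 3720.2 CPM (log2 0.29, SE 0.03), and ITGB1, an integrin beta subunit, from 1179.8, 1073 and 1073 CPM to 1332, 1355 and 1306 CPM (log2 0.27, SE 0.03). DNAJB1, an inducible co-chaperone, went the other way, from 156, 148 and 121 CPM to 113, 105 and 100 CPM (log2 -0.41, SE 0.05). Likewise EIF5, an initiation factor, went from 414, 420 and 342 CPM to 351, 360 and 249 CPM (log2 -0.30, SE 0.06). The calls of DNAJB1 and EIF5 were each lost in 1 of 15 alternatives (adjusted p = 0.0691 and 0.363). Aminoacyl-tRNA synthetases had 11 of 35 higher (31.4%) and none lower, with a median of 0.04 that turned to -0.10 on the ribosomal scale. Of 23 glycolytic genes 8 rose (34.8%) and 2 fell (8.70%), with a median of 0.06 that was -0.08 on that scale. PFKFB3, which makes the activator of phosphofructokinase, was 1 of the 2, with 176, 208 and 188 CPM at 1 h and 143, 157 and 161 CPM at 2 h (log2 -0.31, SE 0.05).

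ACTB and GAPDH are often used to scale RNA levels. ACTB had 4737, 4985 and 4201 CPM at 1 h and 4969, 4841 and 4141 CPM at 2 h (log2 0.00, SE 0.03). The change of GAPDH was 0.09 on the log2 scale (SE 0.03, adjusted p = 0.02 by edgeR), which 11 of 15 alternatives did not call, and both changes were below 0 on the ribosomal scale, as were those of VIM and H2AFZ.

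Among genes with a mean of at least 5 CPM and all 3 pairs higher, the largest rise was 0.61 on the log2 scale. At any level, 17 genes called higher rose by over 1.5-fold and 2 by over 2-fold, the largest by 1.48. MALAT1, a nuclear long noncoding RNA, went from 142, 176 and 209 CPM to 208, 285 and 264 CPM. Replicate 1 at 2 h lay just below replicate 3 at 1 h, each pair rose, and the log2 change was 0.52 (SE 0.07, adjusted p = 1.94e-06 by edgeR, and 0.0713 without the replicate block). KCNQ1OT1, the antisense noncoding RNA of the KCNQ1 locus, went from 6.10, 5.66 and 5.39 CPM to 10.6, 8.50 and 7.15 CPM (log2 0.60, SE 0.18, adjusted p = 0.0149), a call lost in 5 of 15 alternatives (adjusted p up to 0.269). ANKRD36, a member of a duplicated gene family with near-identical copies, went from 7.45, 5.75 and 8.43 CPM to 10.1, 11.3 and 11.7 CPM (log2 0.61, SE 0.16), a call lost in 4 of 15 (adjusted p up to 0.13). NEAT1, the scaffold of nuclear paraspeckles, had 162, 153 and 240 CPM at 1 h and 177, 154 and 171 CPM at 2 h (log2 -0.14, adjusted p = 0.313). Of 15 nuclear long noncoding RNAs, 3 rose (20.0%, against 13.0% over all genes) and 1 fell. The other 7 of the 10 largest rises had log2 changes between 0.44 and 0.58, and PIGN, a gene of GPI-anchor synthesis that went from 15.0, 14.4 and 16.3 CPM to 21.4, 20.7 and 20.5 CPM (log2 0.46, SE 0.10), was the only 1 of the 10 to keep its call in all 15 alternatives.

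Whether the second hour differed from the first was tested as the difference of the 2 changes, (2 h minus 1 h) minus (1 h minus 0 h). Both changes share the libraries at 1 h, so a library that stands apart at 1 h moves them in opposite directions. The change was more negative in the second hour in 420 genes (3.29%) and more positive in 303 (2.37%). Of the 224 genes that fell by more than 2-fold in the second hour, 92 were among the 420 and none among the 303. They were chosen by a large fall in the second hour, which is part of this difference, so their side is largely set by the choice. PLK2 had log2 changes of -0.68 in the first hour and -2.08 in the second, a difference of -1.40 (adjusted p = 4.79e-07 by edgeR). NFKBIA had -1.10 and -2.87 (difference -1.77), C15orf39 had -0.56 and -2.09 (difference -1.52) and MYC had -0.78 and -1.999 (difference -1.22). DDIT4 had -1.84 and -2.04, a difference of -0.19 that did not pass (adjusted p = 0.681).

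These counts depended heavily on the fit. Without the replicate block edgeR called 0 genes in either direction (551 below and 358 above at an unadjusted p below 0.05), while DESeq2 with the block called 120 and 163. Leaving out replicate 3 at 1 h left 49 genes below and 8 above, and leaving out replicate 1 at 1 h gave 608 and 674. The difference of PLK2 kept its call in 13 of 14 alternatives, all but the fit without the block, and those of NFKBIA and C15orf39 were lost in 1.

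In some genes the 2 hours had opposite directions. GABPB1-AS1, an antisense noncoding RNA, had 5.48, 6.13 and 6.34 CPM at 0 h, 7.24, 8.11 and 11.0 CPM at 1 h and 5.09, 3.24 and 5.80 CPM at 2 h, so that each replicate peaked at 1 h. Its log2 changes were 0.56 and -0.90, and the difference was -1.46 (adjusted p = 0.00187). AMH, the anti-Mullerian hormone gene, had changes of 1.18 and -0.31, of which the second did not pass (adjusted p = 0.167), and a difference of -1.49. MED26, which averages below 5 CPM, had a difference of -1.46 (adjusted p = 0.016). Other genes had lost most of their level before the second hour. ZNF267 measured 18.1, 23.7 and 16.2 CPM at 0 h, 5.69, 6.32 and 7.04 CPM at 1 h and 4.80, 6.27 and 4.44 CPM at 2 h. Its changes were -1.59 and -0.31 (adjusted p for the second hour 0.169), and the difference was 1.28 (adjusted p = 0.00416). ZNF254 and the noncoding RNA LOC284454 had differences of 1.01, but these were lost in 8 and 10 of 13 alternatives.

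**Figure D4:**
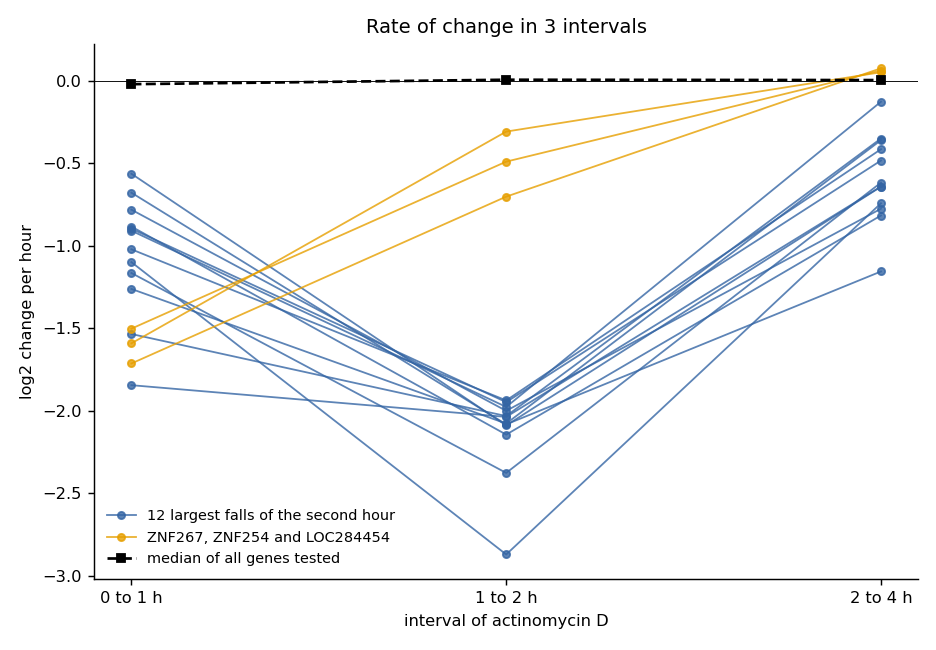
Log2 change per hour (vertical axis) in the intervals 0 to 1 h, 1 to 2 h and 2 to 4 h for the 12 largest falls of the second hour (blue), for ZNF267, ZNF254 and LOC284454 (orange) and for the median of all genes tested (black, dashed). The blue lines have their lowest point in the second hour, at -1.94 to -2.87, and the orange lines start below -1.5 and end near 0; the blue genes were chosen by their second-hour change.

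The later interval was compared on the scale of change per hour, (4 h minus 2 h) divided by 2, minus the second hour. It was higher than the second hour in 867 genes (6.79%) and lower in 782 (6.12%). Of the 224 genes that fell by more than 2-fold, 111 were among the 867 and none among the 782. Here the second hour is subtracted, so the choice of these genes by their second-hour fall again largely sets their side. The difference was 2.13 for NFKBIA, 1.85 for ZNF574, 1.80 for ZNF526, 1.76 for HES1 and 1.72 for SOCS3. ZNF526 had a log2 change per hour of -1.88 in the second hour and -0.08 afterwards, with 3.51, 3.66 and 2.55 CPM at 4 h. NFKBIA was at 1.02, 1.25 and 0.424 CPM at 4 h and HES1 at 0.907, 0.837 and 0.848 CPM, levels that rest on few counts. SOCS3 was at 2.83, 1.15 and 2.76 CPM at 4 h. PLK2, in contrast, went on at -1.15 per hour to 4.31, 4.92 and 4.77 CPM at 4 h, with a difference of 0.93.

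Where the later change per hour lay below that of the second hour, the differences were smaller, with CCDC102B at -0.64, VAMP4, a vesicle SNARE gene, at -0.61 and IL17RD, an inhibitor of FGF signalling, at -0.60. Leaving out replicate 2 at 2 h left 66 genes above and 10 below in this comparison, leaving out replicate 3 at 2 h left 108 and 23, and the fit without the block called 17 and 0 (625 below at an unadjusted p below 0.05).

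The genes that fell by more than 2-fold also differed from the rest in features of their transcripts, which the comparison did not use and which are given as a description. A GENCODE release 29 transcript with a 3′ UTR was matched by symbol for 11984 of the 12775 genes (93.8%), 210 of the 224 among them. The median transcript of those 210 had 3 exons, against 8 in genes that fell by up to 2-fold, 10 in genes that rose and 9 over all genes. The median genomic span was 11026 bases against 34682 over all genes. The median 3′ UTR was of much the same length, 1210 bases against 1176.

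The nonamer TTATTTATT, searched on the sense strand with overlapping matches counted, was found in the 3′ UTR of 14.8% of the 210 genes, 10.7% of genes that fell by up to 2-fold, 8.55% of genes not called and 8.76% of genes that rose. The share over all genes was 8.97%. Among 3′ UTRs of 1000 to 3000 bases it was 15.2% in the genes that fell by over 2-fold and 9.33% in all. The motif TGTANATA was found in 40% of the 210 genes, 39.3% of those with smaller falls, 26.5% of genes not called and 27.6% of genes that rose, with 28.6% over all. By matches per 1000 bases of 3′ UTR, this motif stood at 0.41 in the falls over 2-fold and 0.297 in the smaller ones (0.468 and 0.335 in the length window), and the nonamer at 0.129 and 0.0684. The pentamer ATTTA alone was in 80% of the 210 genes, 74.3% of those with smaller falls and 68.8% of genes not called, and in 82.2% of genes that rose. In the length window it was in 90.2% of the genes that fell by over 2-fold and 95.4% of those that rose, so its share was highest in the genes that rose. Of genes with 2 or more Pumilio motifs 21.4% fell, and of genes with none 12.5%. In 3′ UTRs of 1000 to 3000 bases these shares were 25.6% and 14.4%. The ZNF genes that fell by over 2-fold held the nonamer in 8.77% of 57 genes, and the other genes that fell as far held it in 17% of 153. Genes share UTR sequence within families and longer UTRs hold more of any motif, so no test was made.

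**Figure D5:**
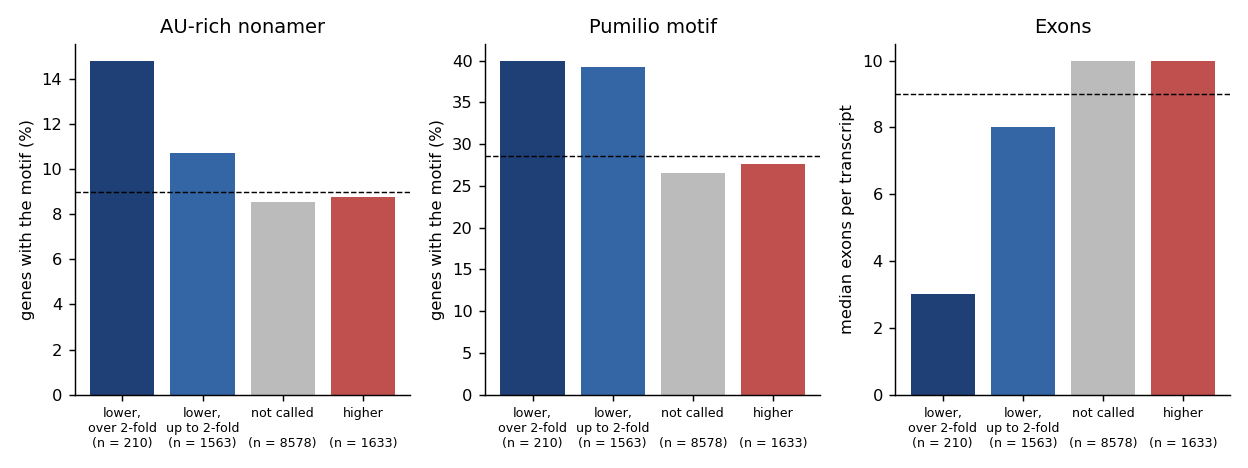
Share of genes whose 3′ UTR holds the AU-rich nonamer (left) or the Pumilio motif (middle), in percent, and median number of exons (right), in 4 classes of second-hour change; n is the number of genes with a 3′ UTR and the dashed line is the value over all genes tested. The nonamer share is 14.8% in genes that fell by over 2-fold, the Pumilio share is about 40% in both classes that fell, and the median number of exons is 3 in the class with the largest falls.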

How the data were processed

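The authors deposited 1 table of raw counts, with 12 libraries in columns and gene symbols in rows, which was analysed as such. Per the submitters' processing notes, FastQC and STAR were run on build hg19 (no version given), and per the labels' protocols RNA was purified with a Nucleospin kit for stranded TruSeq libraries of mRNA. How reads were assigned to genes (program, annotation, strand) is not given in the sources used here, so a gene and an overlapping or antisense partner cannot be told apart, and it is not known whether reads matching several places were counted. The table lists 26334 genes, of which 7175 had no count. Library totals lay between 9381855 and 10929000; intervals were not computed from them, and they limit the precision of low genes.

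Genes were kept by filterByExpr on the 4 times (12775 genes), scaled by TMM and fitted with edgeR 4.0.16 (limma 3.58.1, R 4.3.3) over all 12 libraries with the replicate number as a block. The SE of a log2 change is its size divided by the square root of F. The series' design text describes 3 biological replicates sampled at every time. Deviations from the group means correlated between 1 h and 2 h at 0.397, 0.330 and 0.650 within replicates 1, 2 and 3, and at most at 0.177 between different numbers, so the numbers were taken as pairs. Whether the replicates were separate cultures beyond that text is not stated, and p-values measure the spread between these samples. No 2 replicates agreed within sampling noise (chi-square per degree of freedom 4.31 to 14.2). The script was tested on simulated data.

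Genes named are the 12 largest falls and 10 largest rises with a mean of at least 5 CPM and 3 of 3 pairs in 1 direction, the 5 largest each way in each comparison of rates, up to 4 members with the smallest p per list, and FLI1, EWSR1, MYC, GAPDH, ACTB and MALAT1; FOS, JUND, ZFP36, CDKN1A, MDM2, NFKBIB, NFKBIE, TNFAIP3, KLF9, NEAT1, RPL36A, NDUFV3, OTX1, C10orf10, GAS5 and the small nucleolar RNA genes were named after their values were seen. The comparison and the 33 gene lists were chosen with earlier results of these data known. Alternatives were no replicate block, scaling to library totals or to ribosomal protein mRNAs, DESeq2 1.42.0 with the block, no filter, a fit of the 6 libraries alone, and leaving out each library or replicate. Promoters and microRNAs were not used here.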

Additional observations from a re-analysis of the deposited data

Results flagged for a closer look

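The change in the second hour differed from that in another interval by a test of the difference itself, which shares the libraries at 1 h or 2 h between both sides. Against the first hour, 420 genes had a more negative and 303 a more positive change, and against the change per hour from 2 to 4 h the later one was higher in 867 genes and lower in 782. Among genes with a mean of at least 5 CPM, the largest such differences from the first hour were NFKBIA (-1.77), C15orf39 (-1.52), AMH (-1.49), GABPB1-AS1 (-1.46) and PLK2 (-1.40) on the negative side, and among genes below that level MED26 had -1.46. On the positive side they were ZNF267 (1.28), IL1B, a cytokine gene (1.03), ZNF254 (1.01), LOC284454 (1.01) and IQGAP2, a scaffold protein gene (0.99). IL1B went from 4.76, 3.58 and 3.65 CPM at 1 h to 5.78, 5.56 and 5.89 CPM at 2 h, a call lost in 8 of 15 alternatives. Its difference from the first hour was lost in 9 of 13 alternatives, and that of IQGAP2 in 10 of 13.

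In the later interval the change per hour was higher than in the second hour by 2.13 for NFKBIA, 1.85 for ZNF574, 1.80 for ZNF526, 1.76 for HES1 and 1.72 for SOCS3 on the log2 scale. Those of NFKBIA, ZNF574 and ZNF526 stayed past the threshold in all 13 alternatives. The values of NFKBIA and HES1 at 4 h rest on few counts. It was lower for CCDC102B (-0.64), VAMP4 (-0.61), IL17RD (-0.60), PALM2 (-0.59) and NAPEPLD (-0.53), and these were lost in 6, 4, 8, 10 and 10 of 13 alternatives. NAPEPLD, which encodes a phospholipase of lipid signalling, had 7.86, 9.62 and 10.4 CPM at 1 h, 8.52, 9.81 and 11.2 CPM at 2 h and 4.99, 4.92 and 5.94 CPM at 4 h, so that its second-hour change did not pass the test (log2 0.08, adjusted p = 0.675) and its later values lay below those of both earlier times.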

How the results depend on the processing

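The 12 largest falls stayed past the threshold in all alternatives, as did 52 of 77 named genes called lower, whereas 12 of 55 named genes called higher and 1 of the 10 largest rises did. Scaling to library totals or to ribosomal protein mRNAs moved the changes downward, which enlarges falls and shrinks rises. Without the replicate block, which pairs libraries by number, 731 genes were lower and 187 higher (1827 and 1664 with it), 0 had a second-hour change below or above that of the first hour, and 17 a later change above and 0 below that of the second hour (unadjusted p below 0.05: 551, 358, 811 and 625; DESeq2: 120, 163, 338 and 581 genes). Scaling to library totals gave 816 higher genes, and 654 below and 85 above in the comparison with the first hour. Scaling to ribosomal protein mRNAs gave 3789 lower and 76 higher genes, 1191 below and 7 above the first hour, and 143 below the second hour later on. It also turned the log2 changes of H2AFZ (-0.003), VIM (-0.078), GAPDH (-0.054) and ACTB (-0.141). No filter on low counts kept each of the 6 counts within 1.5 times, and the 6 libraries alone kept the counts of lower and higher genes so; rates could not be compared in that fit.

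Leaving out 1 library gave 1321 to 1845 lower and 943 to 1817 higher genes, 49 to 608 below and 8 to 674 above the first hour, and 66 to 1209 above and 10 to 1452 below the second hour later on. Leaving out a replicate at every time, chosen after seeing the data, gave 1127 to 1932, 597 to 1784, 50 to 650, 4 to 654, 41 to 1175 and 4 to 1244, in that order. The count of higher genes moved by over 1.5 times without replicate 3 at 1 h (970), replicate 2 at 2 h (968) or replicate 3 at 2 h (943). For genes below the first hour the libraries that did so were replicates 2 (194) and 3 (49) at 1 h and 2 (177) and 3 (236) at 2 h. For genes above it they were replicates 1 (674), 2 (90) and 3 (8) at 1 h and 1 (494), 2 (69) and 3 (78) at 2 h. For genes above the second hour later on they were replicates 2 (450) and 3 (364) at 1 h and 2 (66) and 3 (108) at 2 h, and for genes below it 1 (1452), 2 (285) and 3 (199) at 1 h and 2 (10) and 3 (23) at 2 h. The cause was not tested. Where 1 library was left out, the remaining libraries of that time were assumed to vary like the others. At these library totals, falls of genes below about 1 CPM rest on a few counts at 2 h.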

Other observations

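Small nucleolar RNA genes were looked at after their values were seen. Of 37 tested genes named SNORA or SNORD, 7 fell and none rose in the second hour, against 14.3% lower over all genes, with a median log2 change of -0.68, but their mean levels lay between 0.129 and 3.17 CPM. Several lie in introns of a host gene whose spliced RNA did not pass the test. SNORD47 and SNORD80, which lie in introns of GAS5, had log2 changes of -2.05 (adjusted p = 3.35e-06) and -1.54 (adjusted p = 0.00158), and GAS5 itself, at a mean of 96.5 CPM, had -0.13 (adjusted p = 0.08). SNHG12, the host of SNORA44, fell by 0.85 on the log2 scale, and SNORA44 had too few counts for a fold. Mature small nucleolar RNAs carry no poly(A) tail, and how reads inside a host intron were counted was not given in the sources used here, so what these counts measure was not tested.

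Of 23 tested host genes, 3 fell and 3 rose (13.0% each way, against 14.3% and 13.0% over all genes), with a median of -0.01. SNHG7 went from 23.0, 26.7 and 23.7 CPM to 17.1, 19.8 and 17.0 CPM (log2 -0.45, SE 0.09) and SNHG5 from 94.0, 107 and 91.9 CPM to 110, 124 and 115 CPM (log2 0.25, SE 0.05), the latter call lost in 2 of 15 alternatives. Of 27 genes of cholesterol synthesis and uptake, 3 fell (11.1%) and 6 rose (22.2%), against 14.3% and 13.0% over all genes. INSIG1, which retains the sterol sensor in the endoplasmic reticulum, went from 134, 154 and 125 CPM to 99.9, 116 and 101 CPM (log2 -0.38, SE 0.06), and HMGCS1, an enzyme of the pathway, from 164, 155 and 181 CPM to 193, 189 and 203 CPM (log2 0.23, SE 0.04); these calls were lost in 1 and 2 of 15 alternatives. Of 16 tested histone genes 1 fell and 4 rose, against 14.3% and 13.0% over all genes. H2AFX, the variant phosphorylated at DNA breaks, went from 18.1, 21.2 and 26.3 CPM to 17.4, 16.1 and 18.4 CPM (log2 -0.34, SE 0.09), with overlapping groups, and this call was lost in 5 of 15 alternatives.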
